A study of Homo sapiens with 2 samples.

Results

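The data described here are the counts of 10 genes of apical polarity and cell junctions in human cerebral organoids, SHROOM3, PARD3, PARD3B, PARD6B, PRKCI, CRB2, TJP1, AFDN, PALS1 and VCL. They were picked by name from the 62704 genes counted in each of 2 libraries, and all 10 were found in both. The organoids were grown from H9, an established human embryonic stem cell line that served as the only line of the study, so 1 genetic background was sampled. The library of single cells pooled unperturbed cerebral organoids (CO) of days 45, 55 and 70, organoids dissociated at day 45 and reaggregated (DISS) of days 48, 55 and 70, and organoids freed of Matrigel at day 13 and constrained in 3% agarose (CONS) of day 55. The library of nuclei came from day 45 CO, taken as whole organoids or as single-cell suspensions. Its treatment label also names Embed, which the sources used here do not explain. Both were made by split-seq, in which RNA receives well barcodes in successive rounds so that a combination of wells stands for a cell or a nucleus.

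All barcodes of a library carry the same sample name. The treatment and the day behind a barcode were therefore not known here, no groups of the study were compared, and each library is 1 sample without replicates. No test or p-value is given. Intervals are 95% exact Poisson intervals for levels and exact binomial intervals for ratios and shares, and they cover counting error only. The wells of the first barcoding round (48 for cells and 12 for nuclei) received samples of unknown condition, so values by well are given as a range or a median. A barcode was kept if it had over 500 genes and over 1000 transcripts, with no more than 20% of them mitochondrial, which left 20178 cells with a median of 2615 transcripts and 14228 nuclei with a median of 3890.

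Apical radial glia of the cortex are epithelial cells. Their apical ends line the ventricle and are held to each other by a belt of adherens junctions, above which sit the Par complex (PAR3, PAR6 and atypical protein kinase C) and the Crumbs complex (Crumbs, PALS1 and PATJ). A newborn neuron gives up this apical attachment when it leaves the ventricular surface, while the epithelium of the choroid plexus keeps apical polarity and seals its cells with tight junctions.

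Barcodes were assigned to 3 classes by their markers after each had been thinned to 1000 transcripts. A class needed at least 3 of its 10 markers and at most 1 of each of the other lists. In the cells this gave 1697 radial glia-marker, 589 choroid plexus-marker and 4802 neuron-marker barcodes, with medians of 4279, 5588 and 2792.5 transcripts, and 13090 stayed unassigned. In the nuclei it gave 1591, 343 and 3578 barcodes, with medians of 3492, 7173 and 4223 transcripts, and 8716 stayed unassigned. The classes were defined by these lists, so their summed levels describe the classes and do not check the names. The summed level of the radial glia list (GLI3, SOX2, PAX6 and others) was 37.7 counts per 10000 in radial glia-marker cells and 9.47 in neuron-marker cells, that of the choroid plexus list (TTR, HTR2C and others) was 186 in choroid plexus-marker cells and 6.15 in radial glia-marker cells, and that of the neuronal list (SYT1, GRIA2 and others) was 56.5 in neuron-marker cells and 13.6 in radial glia-marker cells. Markers of other cell types were also summed. Summed levels of the mesenchymal, endothelial, microglia and blood, and other epithelial lists were at most 1.43 counts per 10000 in any of the 3 classes of either library, and all 4 were highest in choroid plexus-marker barcodes of both libraries, led there in the cells by PDGFRB, KDR, PTPRC and KRT18. KRT19 was at 0 in radial glia-marker barcodes of both libraries, and COL3A1, DCN and LUM were at 0 in choroid plexus-marker nuclei. The Cajal-Retzius list was highest in neuron-marker nuclei (1.96, led by RELN at 1.86), the list of intermediate progenitors in neuron-marker cells (1.44), and the list of inhibitory neurons was at most 0.467 in any class. The part of these cell types in the levels below was not tested.

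The genes lie on 9 chromosomes of GRCh38 and differ widely in length. The GENCODE 44 spans are chr4:76435229-76783253 for SHROOM3 (ENSG00000138771), chr10:34109560-34815325 for PARD3 (ENSG00000148498), chr2:204545475-205620162 for PARD3B (ENSG00000116117), chr20:50731580-50756795 for PARD6B (ENSG00000124171) and chr3:170222424-170305977 for PRKCI (ENSG00000163558). They are chr9:123356170-123380324 for CRB2 (ENSG00000148204), chr15:29699367-29968915 for TJP1 (ENSG00000104067), chr6:167826893-167972023 for AFDN (ENSG00000130396), chr14:67240713-67336061 for PALS1 (ENSG00000072415) and chr10:73995193-74121363 for VCL (ENSG00000035403). PARD3B spans 1075 kb, of which 0.979% is exonic, and PARD6B spans 25.2 kb, of which 18.6% is exonic. CRB2 overlaps the coding gene DENND1A, PALS1 overlaps ATP6V1D and VCL overlaps AP3M1, and SHROOM3, PARD3B and TJP1 overlap antisense genes that do not code for protein. PARD3, PRKCI, SHROOM3 and TJP1 overlap genes that do not code for protein on their own strand. The sources used here do not say whether counting used strand, so reads from the shared stretches cannot be told apart and the values of these genes are uncertain to that extent.

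RefSeq promoters (GRCh38.p14, the 250 bases before a start) were matched by symbol for 8 of the 10 genes, with 12 starts in all. PARD3 and PARD6B had no entry. Shown are 3 of them that lie outside the GENCODE span of their gene, 1 each from the genes of apical constriction (SHROOM3), the Par family (PARD3B) and the junction scaffolds (TJP1), written 5′ to 3′ on the strand of the gene. Capitals mark the E-box CACCTG or CAGGTG, which are the same motif read on the opposite strands and the letters bound by zinc finger repressors of epithelial genes.
SHROOM3 (chr4:76434979-76435228, plus strand): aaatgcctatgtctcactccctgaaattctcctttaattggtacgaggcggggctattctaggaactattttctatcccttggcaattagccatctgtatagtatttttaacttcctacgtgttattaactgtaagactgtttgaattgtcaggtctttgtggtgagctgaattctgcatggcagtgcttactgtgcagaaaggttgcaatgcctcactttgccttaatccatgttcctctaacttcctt
PARD3B (chr2:204545225-204545474, plus strand): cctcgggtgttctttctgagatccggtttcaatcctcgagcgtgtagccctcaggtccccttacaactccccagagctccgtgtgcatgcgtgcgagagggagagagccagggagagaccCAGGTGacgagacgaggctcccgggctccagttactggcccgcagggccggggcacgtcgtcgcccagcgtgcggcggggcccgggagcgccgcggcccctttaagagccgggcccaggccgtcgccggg
TJP1 (chr15:29969050-29969299, minus strand): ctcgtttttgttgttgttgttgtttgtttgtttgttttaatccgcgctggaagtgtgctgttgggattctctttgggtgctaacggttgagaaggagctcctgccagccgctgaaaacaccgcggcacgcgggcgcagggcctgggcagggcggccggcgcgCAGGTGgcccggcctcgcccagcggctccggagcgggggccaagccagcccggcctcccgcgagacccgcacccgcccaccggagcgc
The SHROOM3 window held no E-box, and those of PARD3B and TJP1 held 1 each. Over the members, 3 of 12 windows held the motif, and over all promoters of the same length 6143 of 35116 (17.5%) did. These are matches of letters and say nothing of binding. The SHROOM3 window had 40.8% GC and 3 CpG, against 69.6% and 26 in PARD3B and 66.8% and 26 in TJP1.

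Levels were first compared between radial glia-marker and neuron-marker barcodes. Of the 10 genes, 7 were at least 2-fold higher in radial glia-marker cells (SHROOM3, PARD3, PARD3B, CRB2, TJP1, PALS1 and VCL), where 5.68% of the 24995 genes tested reached that fold in that direction. The same 7 genes were at least 2-fold higher in the nuclei, where 14.3% of 17621 genes did. No member was at least 2-fold lower, against 8.25% of genes in the cells and 13.0% in the nuclei. The median fold of the 10 genes was 2.32 in the cells and 3.19 in the nuclei, and that of all genes tested was 0.98 and 1.11. At a limit of 1.5-fold, 7 members were higher in the cells, against 13.0% of genes, and 8 in the nuclei, against 26.0%, where PARD6B joined. Both AFDN and PRKCI had folds below 1 in both libraries.

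**Figure D1:**
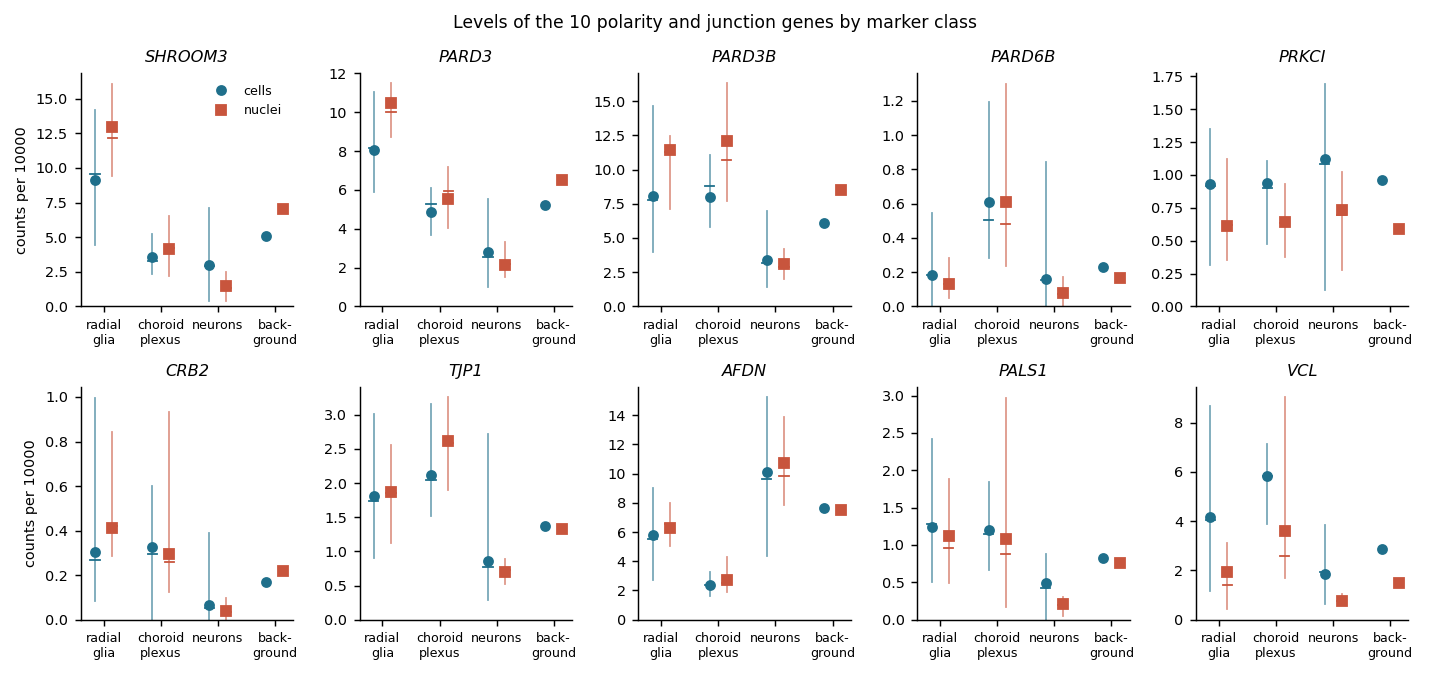
Levels of the 10 genes in counts per 10000 (y axes, from 0) in radial glia-, choroid plexus- and neuron-marker barcodes and in background barcodes of 10 to 100 transcripts. Circles are cells and squares nuclei, vertical lines span the first-round wells with at least 10 barcodes of the class and short ticks are well medians. SHROOM3 is highest in radial glia, PARD6B in choroid plexus and AFDN in neurons in both libraries.

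SHROOM3 binds F-actin and recruits the machinery of actomyosin contraction to the apical junctions, which narrows the cell apex. In the cells its level was 9.10 counts per 10000 in radial glia-marker barcodes (8.95 to 9.26, SD 0.859 over 8 sub-libraries), 3.54 in choroid plexus-marker and 2.98 in neuron-marker barcodes. In the nuclei the 3 levels were 13.0, 4.15 and 1.49. Radial glia therefore carried the most SHROOM3 in both libraries, 3.06-fold above neurons in the cells (2.98 to 3.13) and 8.70-fold in the nuclei (8.34 to 9.08). The size of the fold in the nuclei depended on the choice of barcodes. It was 5.24 when 2 markers sufficed and 14.9 with no marker of another list. With background taken off at a fixed share, which was assumed and not measured, it was 133. The neuronal level of 1.49 in the nuclei lay far below the background level of 7.02. Taking off that share left little of the neuronal level, so the size of 133 is not reliable. Over wells of the cells the level ran from 4.40 to 14.2 in radial glia, with a median of 9.53, and from 0.411 to 7.09 in neurons, with a median of 2.95, so the classes overlapped between wells. In the nuclei they did not, at 9.42 to 16.1 and 0.415 to 2.52. Across wells that held at least 10 barcodes of both classes, radial glia-marker barcodes were higher in 35 of 35 wells of the cells and 12 of 12 of the nuclei. At 1000 transcripts per barcode, a SHROOM3 transcript was found in 54.3% of radial glia-marker cells (51.9 to 56.7%) and 24.9% of neuron-marker cells (23.7 to 26.2%). In the nuclei the shares were 65.8% and 8.36%.

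PARD3 encodes PAR3, the scaffold that places the Par complex at the apical junction, and PARD3B encodes a paralog of it. PARD3 stood at 8.07 counts per 10000 in radial glia-, 4.85 in choroid plexus- and 2.80 in neuron-marker cells, and at 10.5, 5.51 and 2.15 in the nuclei. PARD3B stood at 8.09, 8.03 and 3.41 in the cells, and at 11.5, 12.1 and 3.12 in the nuclei. The paralogs thus parted in the choroid plexus, where PARD3B kept the level of radial glia and PARD3 did not. Radial glia exceeded neurons 2.88-fold (2.81 to 2.96) for PARD3 and 2.38-fold (2.32 to 2.44) for PARD3B in the cells, and 4.89-fold (4.70 to 5.08) and 3.67-fold (3.55 to 3.80) in the nuclei. Over the alternative settings the folds in the nuclei ranged from 3.35 to 10.8 for PARD3 and from 2.78 to 6.88 for PARD3B. They were lowest with 2 markers and highest with background taken off, so the upper ends rest on the same assumed share. Radial glia were higher in 35 of 35 and 12 of 12 wells for either gene. SHROOM3, PARD3 and PARD3B are among genes that the study listed for cells of mixed identity, which it described in the single cells. Those lists set mixed identity cells against cycling radial glia or against neurons, and not radial glia against neurons. They drew on the same library of cells, so the direction of these genes is not independent evidence.

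The partners of PAR3 behaved otherwise. PARD6B, the PAR6 adaptor that ties atypical protein kinase C to PAR3 and CDC42, had 0.184 counts per 10000 in radial glia-, 0.611 in choroid plexus- and 0.162 in neuron-marker cells and 0.130, 0.611 and 0.0807 in the nuclei. Choroid plexus-marker barcodes carried the most in both libraries, with wells from 0.285 to 1.19 in the cells and from 0.233 to 1.30 in the nuclei. The fold of radial glia over neurons was 1.14 (0.98 to 1.32) in the cells and 1.61 (1.23 to 2.11) in the nuclei, so a difference was not detectable at this depth in the cells. PRKCI, the catalytic kinase of the complex, was nearly level, with 0.931, 0.936 and 1.12 in the cells and 0.612, 0.645 and 0.732 in the nuclei. Its neurons stood 1.20-fold above radial glia in each library (1.13 to 1.28 in the cells and 1.07 to 1.34 in the nuclei), and radial glia were not higher in 27 of 35 wells of the cells and 8 of 12 of the nuclei. PARD3 and its paralog PARD3B were thus higher in radial glia than in neurons, and the kinase gene PRKCI was not.

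CRB2 and PALS1 belong to the Crumbs complex, CRB2 as the transmembrane protein and PALS1 as the adaptor bound to its tail. CRB2 had 436 counts in radial glia-marker cells (0.303 per 10000), 228 in choroid plexus-marker cells (0.326) and 256 in neuron-marker cells (0.0664). In the nuclei its levels were 0.414, 0.295 and 0.039. Its fold of radial glia over neurons was 4.56 in the cells (3.90 to 5.34) and 10.6 in the nuclei (8.18 to 13.9), and the interval in the nuclei holds that of SHROOM3. By well, CRB2 in the cells ran from 0.0827 to 0.997 in radial glia- and from 0 to 0.390 in neuron-marker barcodes, which overlap. Over the alternatives that gave a value, the fold ranged from 3.23 to 8.46 in the cells and from 5.14 to 31.5 in the nuclei. A transcript was found in only 2.47% of radial glia-marker cells and 0.708% of neuron-marker cells at 1000 transcripts, and in 5 of 3578 neuron-marker nuclei (0.14%). PALS1 was at 1.24, 1.20 and 0.491 counts per 10000 in the cells and at 1.12, 1.08 and 0.205 in the nuclei. Radial glia and choroid plexus were alike in PALS1 within the counting error, and radial glia exceeded neurons 2.53-fold (2.37 to 2.70) in the cells and 5.48-fold (4.84 to 6.21) in the nuclei. By well, PALS1 in the cells ran from 0.507 to 2.41 in radial glia- and from 0 to 0.884 in neuron-marker barcodes, which also overlap. Over the alternatives the fold of PALS1 in the nuclei ranged from 3.96 to 18.1. The upper end again came with background taken off and rests on the assumed share.

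TJP1 encodes ZO-1, a scaffold of tight and apical junctions, and AFDN encodes afadin, which links nectins to actin. TJP1 was at 1.80, 2.12 and 0.860 counts per 10000 in radial glia-, choroid plexus- and neuron-marker cells and at 1.88, 2.62 and 0.694 in the nuclei. Radial glia exceeded neurons 2.10-fold (1.99 to 2.21) in the cells and 2.70-fold (2.50 to 2.92) in the nuclei, higher in 34 of 35 and 12 of 12 wells. With another random seed for the thinning, or with 2 markers in place of 3, the fold of TJP1 in the cells was below 2, the lowest being 1.78. AFDN had the opposite order, at 5.79, 2.39 and 10.1 counts per 10000 in the cells and 6.25, 2.72 and 10.7 in the nuclei. Neurons thus stood 1.75-fold above radial glia in the cells (1.70 to 1.79) and 1.72-fold in the nuclei (1.66 to 1.77), and radial glia were higher in 0 of 35 and 0 of 12 wells. By well its level ran from 2.74 to 9.05 in radial glia- and from 4.38 to 15.3 in neuron-marker cells, which overlap. A transcript of AFDN was found in 59.5% of neuron-marker cells and 40.8% of radial glia-marker cells, and in 61.3% and 45.6% of nuclei.

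VCL encodes vinculin, which couples cadherin and integrin contacts to actin under tension. It was at 4.18, 5.82 and 1.84 counts per 10000 in radial glia-, choroid plexus- and neuron-marker cells and at 1.92, 3.60 and 0.770 in the nuclei. Radial glia exceeded neurons 2.27-fold (2.20 to 2.35) in the cells and 2.49-fold (2.31 to 2.69) in the nuclei. Over wells the fold of VCL ran from 0.95 to 3.49 in the cells and from 0.53 to 3.44 in the nuclei, with medians of 1.86 and 1.90, so the pooled fold lay above that of the middle well. With 2 markers in place of 3, the fold in the cells was 1.97.

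The choroid plexus was compared with radial glia as a second epithelium. The median mitochondrial share was 6.77% in choroid plexus-marker cells, 2.57% in radial glia- and 1.85% in neuron-marker cells, and its part in the folds was tested only by leaving mitochondrial counts out of the totals and by a limit of 10%, under which the members past 2-fold were the same. Of the 10 genes, only PARD6B was at least 2-fold higher in choroid plexus-marker barcodes, 3.32-fold in the cells (2.84 to 3.89) and 4.69-fold in the nuclei (3.62 to 6.12), where 14.2% of all genes tested reached that fold in the cells and 14.2% in the nuclei, so that 1 of 10 members is no more than the background. At 1.5-fold, PARD6B was the 1 member in the cells (22.2% of genes) and PARD6B and VCL were the 2 in the nuclei (20.2%). SHROOM3 and AFDN were at least 2-fold lower, against 11.3% and 19.6% of genes, so that 2 of 10 members is near the background in the nuclei. SHROOM3 was 2.57-fold lower in the cells (2.47 to 2.69) and 3.13-fold lower in the nuclei (2.94 to 3.32), lower in 12 of 12 wells of each library. AFDN was 2.42-fold and 2.30-fold lower, also in 12 of 12 wells. Over the alternatives its fold ranged from 0.203 to 0.511 in the cells and from 0.255 to 0.461 in the nuclei. PARD3 was 1.67-fold and 1.90-fold lower. VCL was 1.39-fold higher in the cells (1.34 to 1.45) and 1.88-fold higher in the nuclei (1.73 to 2.03), where well A10 held 24.5% of the choroid plexus-marker barcodes and the fold without it was 2.05. TJP1 was 1.18-fold higher (1.10 to 1.25) and 1.40-fold higher (1.27 to 1.53). For PARD3B, PRKCI and PALS1 the folds lay between 0.96 and 1.05. The median fold of the members was 1.00 and 1.01, and that of all genes was 0.95 and 0.83.

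Set against neurons, choroid plexus-marker cells were at least 2-fold higher in 6 of 10 genes (13.9% of all genes tested) and choroid plexus-marker nuclei in 8 (16.4%), while AFDN was at least 2-fold lower in both (14.6% and 20.7%). The 6 genes of the cells were PARD3B, PARD6B, CRB2, TJP1, PALS1 and VCL, to which the nuclei added SHROOM3 and PARD3. AFDN was 4.23-fold lower in the cells (4.03 to 4.45) and 3.95-fold lower in the nuclei (3.68 to 4.24).

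**Figure D2:**
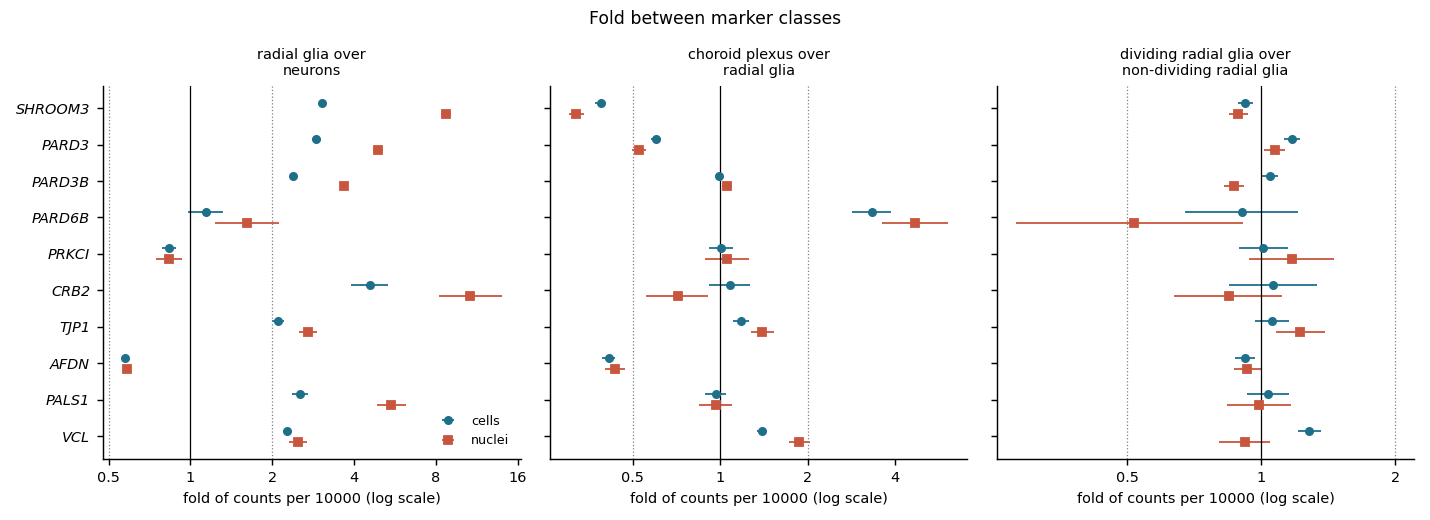
Fold of counts per 10000 between marker classes (x axes, log scale) for each gene, with 95% exact intervals for counting error as bars. Circles are cells, squares nuclei, and dotted lines mark 2-fold. In the first panel 7 genes lie at or right of the 2-fold line in both libraries and AFDN left of 1, in the second only PARD6B lies right of it, and in the third no gene lies past 2-fold.

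Apical radial glia divide at the ventricular surface while they keep apical contact. Outer radial glia, which the paper found within its radial glia cluster, were not separated here. The paper also reports that DISS organoids lacked discernible ventricles, so the position of these barcodes is not known. Among radial glia-marker cells, 549 had at least 2 of 10 markers of division after thinning and 764 had none, and among the nuclei 386 and 905. No member differed 2-fold between these in either library, against 2.52% of genes higher and 1.84% lower in the cells and 3.23% higher and 4.18% lower in the nuclei. SHROOM3 was at 8.95 counts per 10000 in dividing and 9.71 in non-dividing cells, and at 12.1 and 13.7 in the nuclei. VCL was 1.28-fold higher in dividing cells (1.21 to 1.36) and had a fold of 0.92 in the nuclei (0.81 to 1.04), with a median over wells of 0.97 in the cells. The largest barcode held 7.20% of the counts of dividing cells and 1.98% of those of non-dividing cells, and its part in the fold was not tested. PARD6B in the nuclei had a fold of 0.52 (0.28 to 0.91), on levels of 0.0807 and 0.156. Barcodes with EOMES and another marker of intermediate progenitors numbered 81 in the cells, where 1 barcode held 17.6% of the counts, and 19 in the nuclei, and their levels are not described.

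The levels were also read along the number of markers. Cells with at most 1 neuronal and 1 choroid plexus marker were sorted by the number of radial glia markers detected after thinning. SHROOM3 went from 3.95 counts per 10000 at 0 markers (819 barcodes) through 6.42, 7.91, 8.84 and 9.23 to 10.4 at 5 or more (177 barcodes). PARD3 went from 5.03 to 8.06 and VCL from 2.35 to 4.44, while AFDN stayed between 5.36 and 6.23. These steps use the lists that define the classes and are a description. Along the number of neuronal markers the order turned round. In the nuclei SHROOM3 went from 9.85 at 0 neuronal markers (1439 barcodes) through 9.36, 4.83, 2.06 and 1.48 to 0.891 at 5 or more (1113 barcodes). AFDN in the cells went from 5.02 to 11.1 at the same ends, and PRKCI stayed between 0.987 and 1.16. Median depth along these steps ran from 2327 to 4914 transcripts in the cells and from 3323.5 to 4730 in the nuclei, and its part in the levels was not tested.

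**Figure D3:**
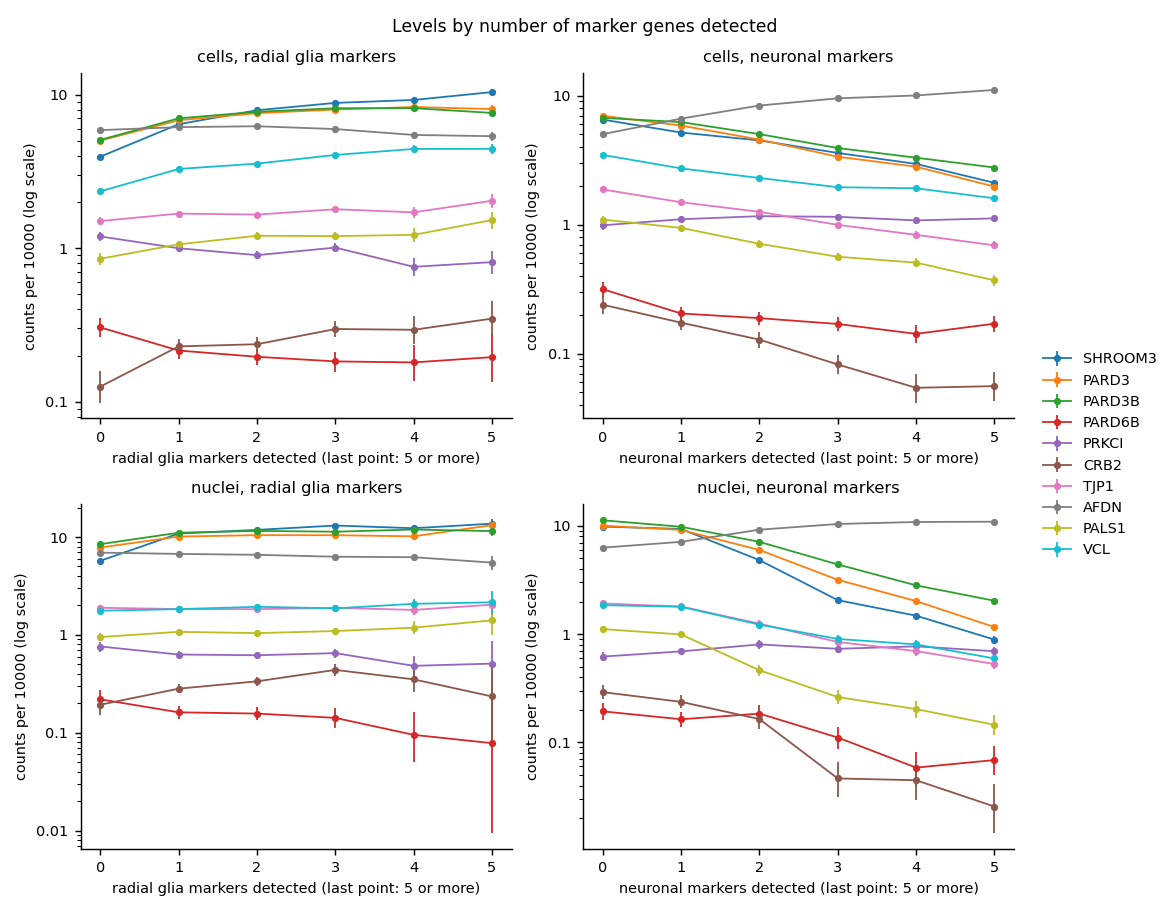
Level of each gene in counts per 10000 (y axes, log scale) against the number of radial glia or neuronal markers detected after thinning to 1000 transcripts, with at most 1 marker of each other list. Bars are 95% Poisson intervals. SHROOM3 climbs from 3.95 to 10.4 over the radial glia markers of the cells and declines from 9.85 to 0.891 over the neuronal markers of the nuclei, while AFDN climbs over the neuronal markers.

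Some barcodes carried at least 3 markers of both lists and at most 1 of the choroid plexus, 864 in the cells and 82 in the nuclei. This class was added after the levels above had been seen. SHROOM3 was at 6.23 counts per 10000 in these cells, 2.09-fold above neurons (2.02 to 2.17) and 1.46-fold below radial glia (1.41 to 1.51), and at 7.36 in these nuclei. AFDN was at 8.11 and 7.50. Their median depth was 1858.5 transcripts in the cells and 4540.5 in the nuclei. Several of the levels in these cells were also near those of background barcodes, 5.30 against 5.23 for PARD3, 1.37 against 1.37 for TJP1 and 2.74 against 2.86 for VCL. A single cell that holds both programs, a barcode shared by 2 cells and free RNA cannot be told apart in these counts.

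Barcodes of 10 to 100 transcripts (1022725 and 167580 barcodes) were taken as a reading of free RNA, which was not tested. SHROOM3 stood there at 5.06 counts per 10000 in the cells and 7.02 in the nuclei. In radial glia-marker barcodes it was 1.80-fold and 1.85-fold above that level, and in neuron-marker barcodes 1.70-fold and 4.71-fold below it. In neuron-marker barcodes of both libraries 8 of the 10 members lay below the background and 2, PRKCI and AFDN, above it. The shares of all genes below and above the background were not computed, so nothing is read from this count. A level below the background does not show that the transcripts of a class are free RNA, and the share of each barcode that is free RNA was not measured. AFDN lay above it in neurons, by 1.33-fold in the cells and 1.42-fold in the nuclei. In choroid plexus-marker barcodes SHROOM3, PARD3 and AFDN lay below it, and PARD6B 2.65-fold and 3.64-fold above. In radial glia-marker barcodes AFDN lay 1.32-fold below it in the cells and 1.21-fold below in the nuclei, and PARD6B 1.25-fold below in the cells.

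Levels of different genes were compared only per length. Per kb of exon, PARD3 was highest in radial glia-marker barcodes (1.10 counts per 10000 and kb in the cells and 1.43 in the nuclei), followed by PARD3B (0.769 and 1.09) and SHROOM3 (0.658 and 0.938). Per kb of the whole span, AFDN came first (0.0399 and 0.0431), and PARD3 had 0.0114 and 0.0149. In neurons AFDN was first on both scales and in both libraries. The order within radial glia thus depended on whether introns were taken to be counted, which the sources used here do not state.

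Nuclei and cells were set side by side in the same class. In radial glia the nuclei had 1.43 times the SHROOM3 level of the cells, 1.42 times that of PARD3B and 1.30 times that of PARD3, but 0.459 times that of VCL and 0.657 times that of PRKCI. VCL was lower in nuclei in all 3 classes, at 0.619 times in choroid plexus and 0.419 times in neurons, and PRKCI likewise at 0.690 and 0.655 times. PALS1 was also below 1 in each class, though only slightly at 0.906 times in radial glia and 0.907 times in choroid plexus. No intervals were computed for these ratios. PARD6B was at 0.708 times in radial glia and 0.499 times in neurons. In neurons the nuclei had 0.500 times the SHROOM3 level of the cells, 0.766 times that of PARD3, 0.916 times that of PARD3B, 0.587 times that of CRB2 and 0.417 times that of PALS1, and 1.06 times that of AFDN. The shares of all genes above and below 1 were not computed, so nothing is read from how many members lie on either side. The libraries differ in material, treatment, day, kit and depth together, so these cannot be told apart.

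**Figure D4:**
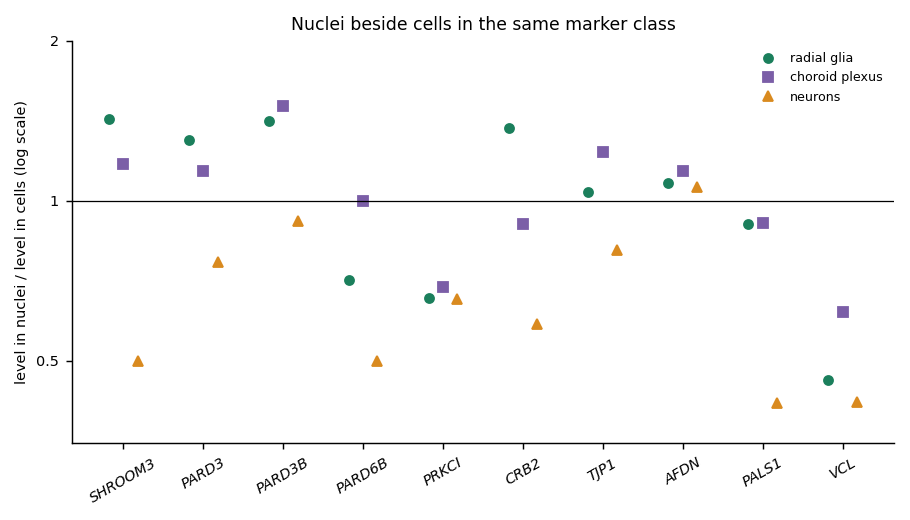
Level in nuclei divided by level in cells (y axis, log scale) for each gene in radial glia- (circles), choroid plexus- (squares) and neuron-marker barcodes (triangles). VCL, PRKCI and PALS1 lie below 1 in all 3 classes, PALS1 only slightly in radial glia and choroid plexus. PARD6B lies clearly below 1 in radial glia and neurons, and SHROOM3 lies at 1.43 in radial glia and 0.500 in neurons. No intervals were computed.

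A further 57 genes of polarity and junctions were listed by role to see whether the members were typical of them. Of 55 with enough counts in the cells, 6 were at least 2-fold higher in radial glia than in neurons and 3 lower, and of 52 in the nuclei 13 were higher and 3 lower. Over all genes tested, 5.68% were higher and 8.25% lower in the cells, and 14.3% and 13.0% in the nuclei. Their median folds were 1.09 and 1.12, below the 2.32 and 3.19 of the members. The 6 genes past 2-fold in both libraries were PROM1, which marks apical membrane protrusions (3.48-fold and 7.22-fold), the tight junction protein CGN (2.92 and 3.28), the SHROOM family members SHROOM4 (2.47 and 2.91) and SHROOM2 (2.01 and 3.10), the adhesion receptor NECTIN3 (2.21 and 3.86) and the basolateral scaffold SCRIB (2.10 and 2.48). Lower in both were CTNNA2, the α-catenin of neurons (3.51-fold and 13.0-fold), LIN7A (2.28 and 3.96), an adaptor of the Crumbs complex, and CDH1, or E-cadherin (2.05 and 5.60, on 6 counts in radial glia-marker nuclei).

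The further genes were also compared between the epithelia. In choroid plexus over radial glia 12 of 54 were at least 2-fold higher in the cells and 10 of 53 in the nuclei, against 14.2% of all genes in either library, with 5 and 4 of the 13 tight junction genes among them, 3 and 2 of the 9 actomyosin and actin link genes tested, and 0 of the 9 and 8 adherens junction genes. Each of the other roles gave 1 higher gene in either library. Of the tight junction genes 1 was at least 2-fold lower in each library, and of the adherens junction genes 0 and 1. CLDN1, a claudin of tight junction strands, was 41.0-fold higher in the cells (21.9 to 86.9) and 34.2-fold in the nuclei (14.0 to 108), on 10 and 5 counts in radial glia. OCLN was 8.44-fold and 44.7-fold higher, MARVELD2 6.47-fold and 4.96-fold, and TJP3 5.14-fold and 16.0-fold. On few counts in radial glia-marker nuclei, 6 for OCLN, 6 for LLGL2 and 8 for TJP3, these folds are imprecise. The basolateral LLGL2 (7.65 and 26.5), PROM1 (2.79 and 3.48), PATJ (2.70 and 2.78) and SHROOM2 (2.65 and 3.55) were also higher in both. The remaining genes at least 2-fold higher in both were MYH9 (2.82 and 2.32) and PRKCZ (2.08 and 2.13). At least 2-fold lower were 4 of 54 in the cells and 5 of 53 in the nuclei, against 11.3% and 19.6% of all genes, so these were not more than the background. Among them CRB1, the paralog of CRB2, was 6.24-fold and 12.4-fold lower, the atypical cadherin FAT4 4.82-fold and 5.22-fold, JAM2 3.02-fold and 17.9-fold and ROCK2, a kinase partner of SHROOM3, 2.53-fold and 3.30-fold. CRB2 had a fold of 1.08 in the cells (0.915 to 1.27) and of 0.713 in the nuclei (0.554 to 0.911). Median folds of the further genes were 0.996 and 0.982.

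**Figure D5:**
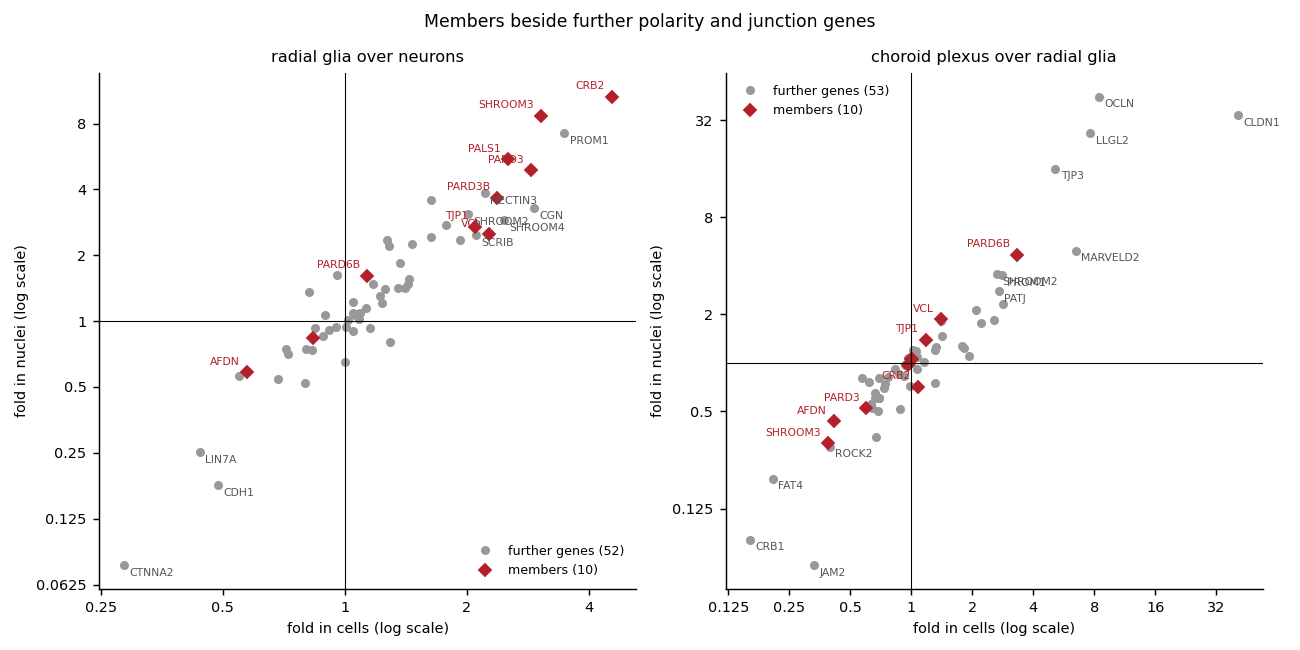
Fold in cells (x axes) against fold in nuclei (y axes), both on log scales, for the 10 members (diamonds) and the further genes with enough counts in both libraries (circles, 52 and 53). In the first panel CRB2 lies farthest toward radial glia in both libraries, and in the second CLDN1 and OCLN lie farthest toward choroid plexus.

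The genes whose pattern was most like that of a member were found over 135 sums of counts by library, first-round well and class, among 13235 genes that were neither members nor markers. These sums share wells, libraries and depth, and the values are descriptions. SHROOM3 was most like DOK5 (Pearson r 0.900), TCF7L1 (0.860) and SYNE2 (0.858), PARD3 like STK3 (0.894), TCF7L1 (0.866) and TCF7L2 (0.865), and PARD3B like COL4A5 (0.877), XYLT1 (0.863) and UTRN (0.859). AFDN was most like NFIB (0.889) and B3GAT1 (0.871), TJP1 like NOTCH2 (0.821), YAP1 (0.818) and SMAD3 (0.817), and PALS1 like IQGAP2 (0.802), YAP1 (0.786) and MYO10 (0.770). VCL was most like MYO1E (0.759), CNN2 (0.725) and CALD1 (0.693), CRB2 like UTRN (0.746), XYLT1 (0.744) and COL4A5 (0.739), and PARD6B like ABCA4 (0.747), CFAP43 (0.747) and ZFYVE16 (0.742). For PRKCI no gene passed TUBB at 0.474, ahead of an unnamed gene (0.469) and TMSB10 (0.463). Among the members, PARD3 and PARD3B were the most alike (0.85), and AFDN and TJP1 the least (-0.75).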

How the data were processed

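The authors split the reads into sub-libraries with 1 mismatch allowed and ran the pipeline of Parse Biosciences against GRCh38. Their deposited values are transcript counts for each gene in each barcode, not filtered and not normalized. Whether introns or strand entered the counting is not given in the sources used here. The cells held 254967545 transcripts in 1303455 barcodes and 8 sub-libraries, and the nuclei 82339738 in 197446 barcodes and 2 sub-libraries. In every barcode the counts summed to the deposited total.

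Barcodes were kept by the limits given above and thinned to 1000 transcripts to count markers, and all counts of the kept barcodes then entered the levels. A level is the counts of a gene per 10000 counts of a class. Genes with at least 30 counts over 2 classes were tested for a fold of 2, and a side with 0 counts was set at 3. The values of the members by class were not tested over samples, since each library is 1 sample. No doublet caller was run here, and no estimated contamination was removed from the main values. The authors called doublets in both libraries and removed estimated RNA contamination from the cells, and saw no need for the latter in the nuclei. Barcodes with over 1 marker of another list stayed unassigned, so barcodes with 1 marker of another list are within the classes. Of the well combinations, 2642 in the cells and 636 in the nuclei occurred in several sub-libraries, and 99 barcode names occurred in both libraries.

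The members were given, and the gene lists and alternatives were chosen, with earlier results of these data known. Of the further genes, those at least 2-fold apart the same way in both libraries are named, up to 8 in each direction and comparison. MYH9 and PRKCZ, which ranked below these in the choroid plexus, are also given. Likeness is Pearson r of log2(counts per 10000 + 0.1) over sums of at least 50000 counts, among genes with at least 500, and 1 of the genes most like AFDN is not reported here. On simulated counts for radial glia and neurons, 200 genes changed 3-fold or 6-fold were all recovered (100%) among 24974 genes in the cells and 17592 in the nuclei, and 1.19% and 1.09% of unchanged genes passed 2-fold. The simulated counts held counting error only, and the changed genes had at least 200 counts. Folds near 2, spread between wells, class assignment and free RNA were therefore not checked by it. Work was done in Python 3.11.15 with scipy 1.17.1, pandas 2.3.3, numpy 2.4.6 and matplotlib 3.10.9. Coordinates are from GENCODE 44 and promoters from RefSeq. Alternatives were 2 or 4 own markers, 0 markers of another list, more than 3000 transcripts, at most 10% mitochondrial counts, means over barcodes, mitochondrial counts left out, the deepest 5% left out, seed 1, thinned counts only, a 1.5-fold limit, background taken off at a share of 0.2 of the counts of a class, and each sub-library left out. Leaving out each first-round well, and the class with both marker lists, were added after seeing the data.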

Additional observations from a re-analysis of the deposited data

Results flagged for a closer look

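For 2 genes the choroid plexus lay on opposite sides of radial glia in cells and nuclei, and this difference was not tested. PARD3B had a fold of 0.992 in the cells (0.960 to 1.02) and 1.05 in the nuclei (1.01 to 1.10). CRB2 had a fold of 1.08 in the cells (0.915 to 1.27) and 0.713 in the nuclei (0.554 to 0.911), and both intervals in the cells include 1.

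The members were also present in barcodes that were not kept and served only as the background reading, those of 10 to 100 transcripts. Summed over the 10 genes, the level there was 30.4 counts per 10000 in the cells (30.2 to 30.6, from 104410 counts) and 34.1 in the nuclei (33.7 to 34.5, from 22325 counts). A count of 0 would allow up to 0.000874 and 0.00458.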

How the results depend on the processing

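The number of members at least 2-fold higher in radial glia than in neurons was 7 in both libraries. It stayed between 5 and 7 in the cells and between 7 and 8 in the nuclei under all alternatives, with 5 when 2 own markers sufficed (TJP1 and VCL dropped out) and 6 with seed 1 (TJP1 dropped out). The number at least 2-fold higher in the choroid plexus than in radial glia was 1 under every alternative in the cells. In the nuclei it became 2, PARD6B and VCL, with no marker of another list, with thinned transcripts only, with a limit of 1.5-fold and with background taken off at a share of 0.2. Leaving out each sub-library gave 7 and 7 and 1 and 1, and leaving out each well gave 7 and 7, 1 in the cells, and 1 to 2 in the nuclei. The 2 came without well A10, when VCL passed 2-fold and reached 2.05. The cause was not tested.

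Alternatives were run for radial glia over neurons and choroid plexus over radial glia, and not for choroid plexus over neurons. Of the 20 folds past 2-fold in either direction there, 17 stayed past it under all alternatives, and 0 of the 20 changed direction. The other 3 were TJP1 and VCL against neurons and AFDN in choroid plexus against radial glia, all in the cells, where AFDN reached 0.511 when 2 own markers sufficed. Of the 20 folds not past it, 16 stayed there, and PARD6B (radial glia over neurons, nuclei), PARD3 and VCL (choroid plexus over radial glia, nuclei) and AFDN (radial glia over neurons, cells) passed it under some. With background taken off, the fold of SHROOM3 over neurons in the nuclei was 133 and CRB2 gave no finite fold there, since its level in neurons came to 0. The share taken off was assumed and not measured, and it may be too large for neuron-marker nuclei. Folds under this setting therefore have no reliable size there. Of radial glia-marker barcodes 62.6% in the cells and 76.0% in the nuclei had exactly 3 markers. CRB2 and PARD6B rest on 73 to 623 counts a class, which limits their folds. No paired analysis was possible because each library is 1 sample and the barcodes carry no replicate number, and classes were only set side by side within wells of unknown condition.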
